A study of Homo sapiens with 4 samples.

Results

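Dense acetylated clusters that hold several CTCF sites were described in DU145, an androgen-insensitive human prostate cancer line established from a metastasis in the brain. They were chosen from the peak lists of 2 libraries, CTCF chromatin and H3K27ac chromatin of untreated DU145 cells fixed with formaldehyde. H3K27ac peaks separated by gaps of 12500 bases or less were joined into domains. A domain was kept if it had 8 or more H3K27ac peaks and held 3 or more CTCF summits, a summit being the base of highest signal in a peak. Of 18213 joined domains, 1169 had 8 or more peaks and 320 of those met both conditions (27.4%). This share follows from the rule and is given as a description. The other dense domains are used for comparison: 523 had 1 or 2 CTCF summits and 326 had 0. Input chromatin of DU145 and of LNCaP, a line from a lymph node metastasis of prostate cancer, completes the series of 4 libraries, and its signal was not analysed here. Each mark was measured in 1 library of 1 cell line, so no value has a replicate error and no test was made.

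H3K27ac is an acetyl group on lysine 27 of histone H3 that marks nucleosomes at active promoters and enhancers. Long runs of closely spaced acetylated regions are often called stretch enhancers or super-enhancers, and they also arise where active genes lie side by side. CTCF, which binds DNA through its zinc fingers, stops the loop-extruding cohesin complex. CTCF sites that flank an enhancer can keep it from promoters beyond them, whereas sites inside an active region can also act as anchors that bring enhancers and promoters together. The peak lists give positions and enrichment of CTCF and do not measure loops.

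The 320 domains were long and varied widely in size. Their median length was 52.8 kb (quartiles 37.7 and 79.5, range 13.05 to 281.1 kb) and they had a median of 16 H3K27ac peaks (range 8 to 106). Median values were 35.3 kb and 11 peaks in the dense domains with 1 or 2 summits, and 30.4 kb and 10 peaks in those with 0. A longer domain has more room for summits, so the greater length is bound up with the choice of members. The share of bases in H3K27ac peaks was similar in size in the 3 sets, with a median of 28.7% per domain in the members, 29.9% with 1 or 2 summits and 30.3% with 0. The members held 12.9% of all H3K27ac peaks (6500 of 50364) and 14.5% of all bases in such peaks. They held 1433 CTCF summits, 3.96% of the 36152 in the list.

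Most members held few summits above the minimum. Exactly 3 summits were found in 136 domains, 4 in 80 and 5 in 50. A further 47 domains held between 6 and 9, and 7 held 10 or more. Just outside the threshold, 209 dense domains had exactly 2 summits. Members with exactly 3 summits had a median length of 44.5 kb and 13 peaks, against 38.6 kb and 12 peaks for those with exactly 2. On the other side of the rule, 26 members had exactly 8 peaks, and 22 domains with 7 peaks held 3 or more summits but were not kept. Across the 320 members the number of summits had a Spearman rho of 0.428 with length and of 0.434 with the number of peaks. These are descriptions of one pair of libraries, and longer domains hold more of both by construction.

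One member stood apart from all others. The domain with the most summits, 39, lay on the unplaced contig gl000220 from 93825 to 161895, a contig known to carry ribosomal DNA. Its CTCF summits had a median fold enrichment of 2.36, and the median local background under them was 31.6 times the genome-wide level of the CTCF list. The median background over all CTCF peaks was 1.38 times that level. Another 2 members had a median background above 5 times the genome-wide level, on chromosome 1 from 161409805 to 161440857 (6.88 times, 8 summits) and on chromosome 14 from 50313402 to 50335532 (5.51 times, 4 summits). The contig held 39 of the 1433 summits, 17 of the 69 fully acetylated segments described below and 15 of the 114 shortest ones. For the rule above, several values are given with and without it.

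The other 319 domains lay on 21 of the 24 assembled chromosomes, and chromosomes 17 and 19 had the most. Chromosome 17 held 43 and chromosome 19 held 41, together 26.2% of the members. Chromosome 1 followed with 29, chromosome 12 with 25, chromosome 16 with 24, chromosome 9 with 23 and chromosome 11 with 21. Chromosomes 13, 18 and Y had 0, and chromosome X had 1. Dense domains of any number of summits were also most numerous on chromosomes 17 (121) and 19 (114), and few on chromosomes 13 (3) and 18 (5). The share of dense domains that were members was 40.0% on chromosome 14 (18 of 45), 36.0% on chromosome 19, 35.7% on chromosome 12 and 35.5% on chromosome 17. At the low end it was 0 of 3 on chromosome 13, 0 of 5 on chromosome 18, 12.9% on chromosome 4 (4 of 31), 14.3% on chromosome 21 (2 of 14), 14.8% on chromosome 10 and 15.2% on chromosome 8. Members held 12.6% of all CTCF summits of chromosome 19 and 11.4% of those of chromosome 17, against 1.2% on chromosome 4 and 0.618% on chromosome X.

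**Figure D1:**
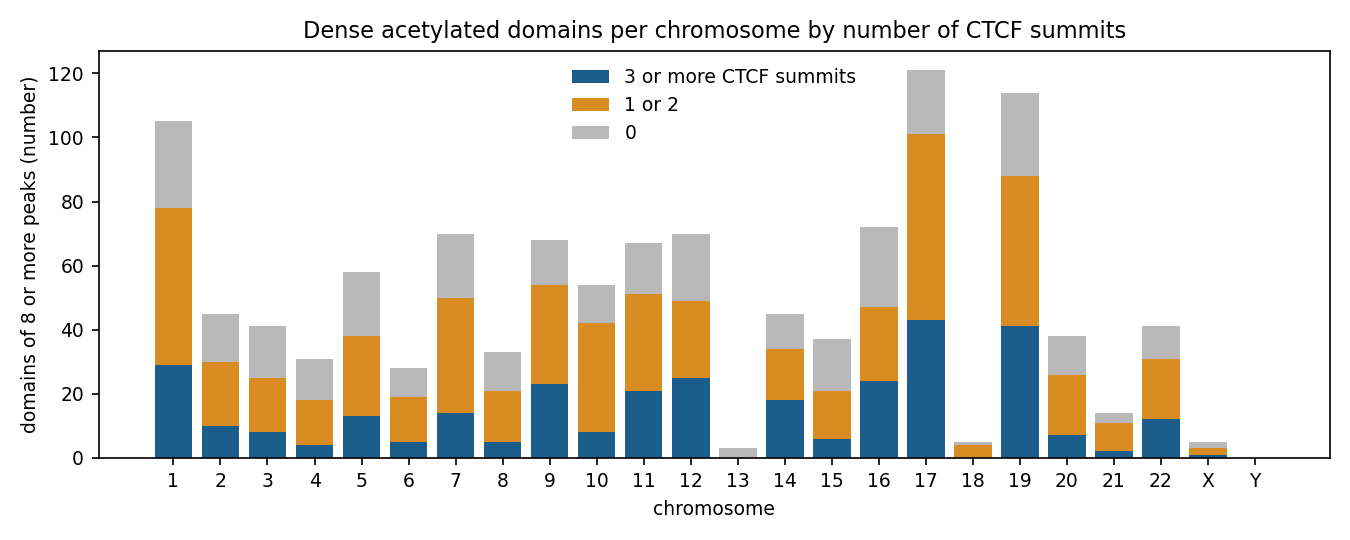
Number of domains of 8 or more H3K27ac peaks on each assembled chromosome (y axis), stacked by the number of CTCF summits they hold: 3 or more at the bottom, then 1 or 2, then 0. Chromosomes 17 and 19 have the most domains with 3 or more summits (43 and 41), and chromosomes 13, 18 and Y have 0.

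Several members lay next to each other. Of 298 pairs of neighbouring members on the same chromosome, 29 were less than 50 kb apart and 47 less than 100 kb. Such counts are not given here for the other dense domains, so closeness is not shown to be particular to members. The closest pair was on chromosome 19, where domains ending at 2117386 and starting at 2129940 were separated by 12.6 kb. The gap exceeded the joining distance only slightly, and another member, from 2028483 to 2073910, ended 12.9 kb before this pair. On chromosome 17, domains from 43123659 to 43255899 and from 43298300 to 43399089 were 42.4 kb apart and held 9 summits each. On chromosome 1, the domain from 154898441 to 154999816 was followed after 22.6 kb by another, from 155022420 to 155059421.

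CTCF summits were found along the whole length of the members, with more of them in the outermost parts. The outer 10% of the length at each end, together called the outer zones, held 376 of 1433 summits, 26.2% (Wilson 95% interval 24.0 to 28.6), in 20% of the length. Without the contig the share was 26.5%. In the dense domains with 1 or 2 summits the outer zones held 31.1% (228 of 732, interval 27.9 to 34.6). When the length was divided into 10 equal bins, the first and last bins held 12.9% and 13.3% of the member summits, and each of the other 8 held between 7.68% and 9.98%. The 2 bins at the centre, with 8.10% and 7.68%, held the fewest. In the domains with 1 or 2 summits, the first and last bins held 14.6% and 16.5%, and the others between 6.69% and 11.2%. The intervals cover counting error only, since summits of 1 domain are not independent, and the difference between the sets was not tested. Domain ends are themselves the edges of H3K27ac peaks, so a summit in an outer zone is also near an acetylated region by construction.

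**Figure D2:**
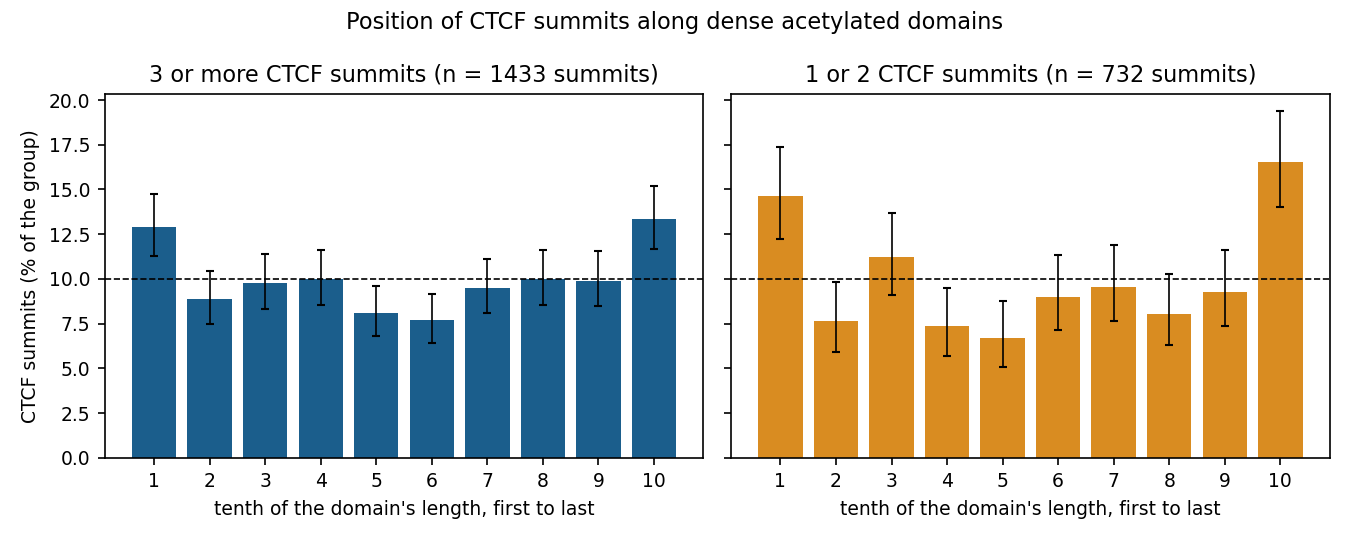
Percent of CTCF summits (y axis) in each of 10 equal bins of the domain's length (x axis, first to last), for domains with 3 or more summits on the left and with 1 or 2 on the right; error bars are Wilson 95% intervals and the dashed line marks 10%. The first and last bins are the highest in both panels, at 12.9% and 13.3% on the left and 14.6% and 16.5% on the right.

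Members with every summit at the edges were fewer than those with every summit in the middle. In 7 domains every summit lay in the outer zones, and in 89 (27.8%) every summit lay in the middle 80%. The outer zones hold 20% of the length, so the first kind is the rarer one by construction. The counts that evenly placed summits would give are not given here. One summit lay in the outer zones in 132 domains, 2 in 64, and 3 or more in 35. Domain ends were also examined with summits just outside included, since the domain is cut at the last acetylated base. A summit within 5 kb to either side of the end was found at both ends of 86 members (26.9%), at 1 end of 163 (50.9%) and at 0 ends of 71 (22.2%). In the domains with 1 or 2 summits both ends had one in 12.2% (64 of 523) and 0 ends in 34.8%. Members were chosen for having more summits, so a higher share with a summit at both ends follows in part from the rule. The first 5 kb outside the members held 129 summits at 100 domains, and the first 12500 bases held 262.

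Summits in the outer zones had a slightly higher enrichment than those in the middle. The authors' fold enrichment, the signal at the summit over the local background, had a median of 11.5 in the outer zones (n = 376) and 10.1 in the middle (n = 1057). Without the contig these were 11.6 and 10.3. The quartiles, 6.40 and 18.5 in the outer zones against 5.88 and 16.4 in the middle, overlapped almost wholly. Among the 136 members with exactly 3 summits, the strongest summit was the first in 48, the middle one in 42 and the last in 46. Over all members the median fold of a summit was 10.3 (10.6 without the contig) from a median of 54 fragments, against 10.6 and 51 fragments in the dense domains with 1 or 2 summits and 9.52 and 45 fragments over the whole CTCF list.

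A large minority of the summits lay inside an H3K27ac peak. This held for 605 of 1433 summits, 42.2% (interval 39.7 to 44.8), against 36.9% (270 of 732, interval 33.5 to 40.4) in the dense domains with 1 or 2 summits and 8.4% over all CTCF summits. H3K27ac peaks cover 31.1% of the members' length, so the higher share than in the whole list comes with choosing acetylated ground. Without the contig the share was 41.1% and the acetylated part of the length 30.9%. When any shared base between the 2 kinds of peak was counted, 62.2% of the member CTCF peaks (interval 59.7 to 64.7) and 63.5% of those in the domains with 1 or 2 summits (interval 59.98 to 66.9) overlapped H3K27ac. Outer and middle summits had similar shares inside peaks, 45.7% (interval 40.8 to 50.8) and 41.0% (interval 38 to 44). In the domains with 1 or 2 summits these shares were 52.2% and 29.96%.

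The remaining 828 summits lay in gaps between H3K27ac peaks, at a median of 350 bases from the nearest acetylated base (quartiles 115 and 1408). Short gaps held the most summits per length. Gaps of up to 500 bases held 126 summits in 0.536 Mb, 235 per Mb, and gaps of 500 to 1000 bases held 80.6 per Mb. Gaps of 1000 to 5000 bases held 54.3 per Mb and gaps of 5000 to 12500 bases held 49.0 per Mb, while the acetylated peaks held 96.5 per Mb (92.2 without the contig). By number the long gaps led, with 384 summits (26.8%) in gaps of 5000 to 12500 bases and 265 (18.5%) in gaps of 1000 to 5000 bases. The domains with 1 or 2 summits had the same order of densities over the gap classes, at 187, 46.3, 31.4 and 20.8 per Mb, with 42.2 per Mb inside peaks. Their lower level follows from the rule.

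Summits between peaks were more enriched than those inside them. The median fold was 12 between peaks and 8.00 inside (12.3 and 8.40 without the contig), from 828 and 605 summits. By gap size the medians were 14.7 in gaps of up to 500 bases, 11.9 from 500 to 1000 bases, 11.9 from 1000 to 5000 bases and 11.6 from 5000 to 12500 bases. The median local background was 1.38 times the genome-wide level both inside and between peaks. All CTCF peaks had that same median, so its equality says little about whether background differed. How far background accounts for the difference in fold was not tested. In the domains with 1 or 2 summits the fold was 11 between peaks and 9.49 inside.

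**Figure D3:**
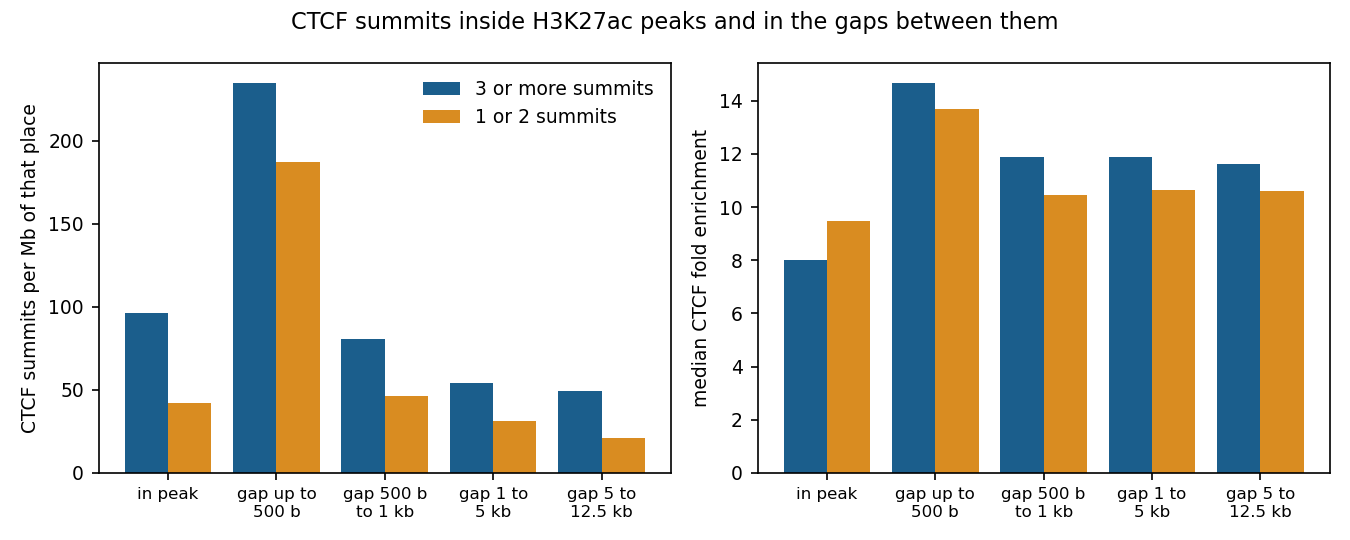
CTCF summits per Mb (left) and their median fold enrichment (right) inside H3K27ac peaks and in gaps of 4 sizes between them, for domains with 3 or more summits (blue) and 1 or 2 summits (orange). In the domains with 3 or more summits, gaps of up to 500 bases hold the most summits per Mb (235) and have the highest median fold (14.7), and H3K27ac peaks have the lowest fold (8.00).

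H3K27ac peaks that held a summit had higher enrichment and were wider than those without one, pooled over all members. Of the 6500 H3K27ac peaks in the members, 536 held a CTCF summit and 57 held 2 or more. Those with a summit had a median fold enrichment of 11.8 and a median width of 1588 bases. The 5964 without one had 4.07 and 539.5 bases. Wide peaks have more room for a summit, and how far width accounts for this difference was not tested. These values include the contig and are not given here for other domains. Whether the difference is particular to the members was not tested.

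The summits cut the members into 1113 inner segments, each between neighbouring summits, and 640 end segments, each from a domain end to its nearest summit. Inner segments had a median length of 7.36 kb (quartiles 2.59 and 16.8, range 0.245 to 140.4 kb), or 7.81 kb without the contig. End segments had a median of 6.40 kb (quartiles 1.63 and 14.4, longest 83.6 kb). Inner lengths were spread over more than 2 orders of magnitude: 114 (10.2%) were under 1 kb, 328 (29.5%) from 1 to 5 kb, 462 (41.5%) from 5 to 20 kb, 191 (17.2%) from 20 to 50 kb, and 18 were 50 kb or more. Without the contig 99 of 1075 (9.21%) were under 1 kb. Spacing within a domain was uneven. The longest inner segment spanned a median of 36.7% of its domain, and in the 184 members with 3 or more inner segments it was a median of 2.43 times their median inner segment.

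Acetylation was unequal between segments. An inner segment had a median of 1901 acetylated bases (quartiles 735 and 4760) in a median of 2 H3K27ac peaks, and a median of 31.1% of its length was acetylated (quartiles 14.7 and 59.4), or 30.2% without the contig. End segments had a median of 1646 acetylated bases and 37.0%. Pooled over all bases the difference was small, at 31.3% of the inner and 30.6% of the end segments. The median share differed by length. Segments under 1 kb had a median of 81.8% (80.2% without the contig), those from 1 to 5 kb 41.7%, those from 5 to 20 kb 23.7%, those from 20 to 50 kb 25.5% and those of 50 kb or more 36.4%. A short segment can fall wholly inside a peak or a gap, so its share varies more by construction.

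Some segments between summits were free of acetylation. No base was acetylated in 89 inner segments (8.00%, interval 6.54 to 9.74), of which 20 were under 1 kb, 58 from 1 to 5 kb and 11 from 5 to 20 kb. None can be longer than the joining distance. Another 69 were acetylated throughout, 17 of them on the contig. The segments from 20 to 50 kb, 17.2% of the segments by number, held the largest part of the inner acetylated bases, 40.2%. Those from 5 to 20 kb held 37.2%. A longer segment has more bases, so these parts depend on length as well as on acetylated share.

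**Figure D4:**
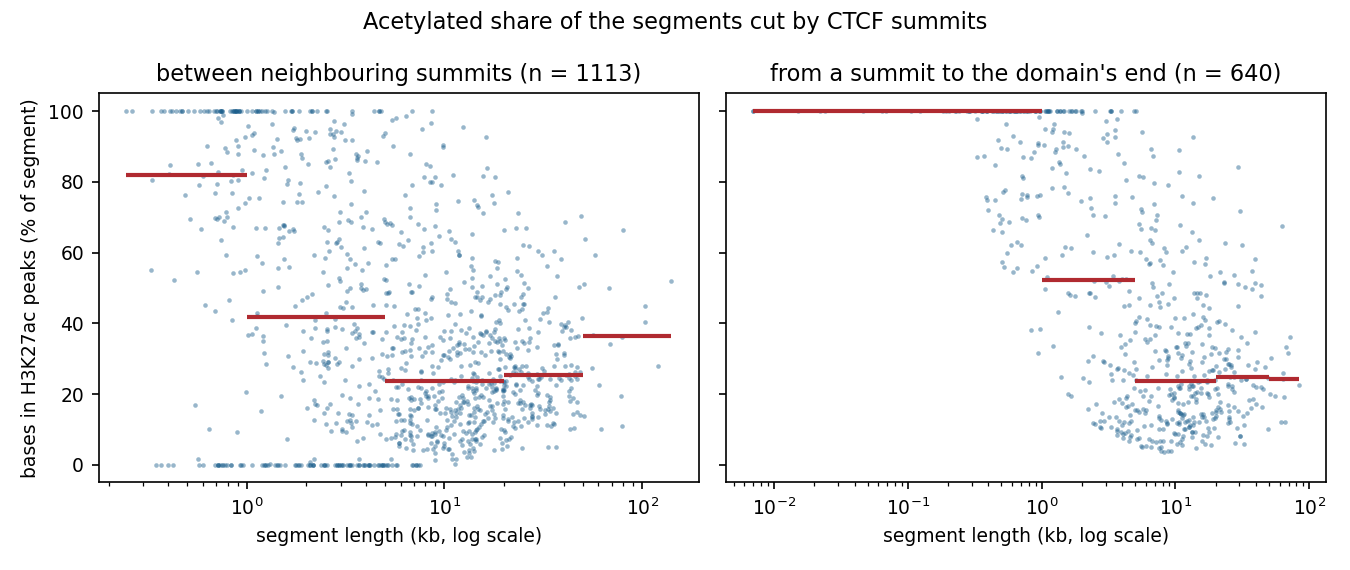
Percent of each segment's bases in H3K27ac peaks (y axis) against its length in kb (x axis, log scale), for segments between neighbouring summits on the left and from a summit to the domain's end on the right; each point is 1 segment and red bars are medians per length class. Inner segments under 1 kb have a median of 81.8% and those from 5 to 20 kb 23.7%, with 89 inner segments at 0.

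In a typical member a single segment carried about as much acetylation as all its others. The segment with the most acetylated bases held a median of 49.5% of its domain's total (quartiles 39.5 and 62.1), and spanned a median of 42.2% of the length. It was an inner segment in 192 of the 320 members. In 204 members at least 2 inner segments were 5 kb or longer. The difference between their highest and lowest acetylated share had a median of 19.4 percentage points (quartiles 9.62 and 38.9) and reached 98.1.

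Acetylation on the 2 sides of a summit was compared in windows of 5 kb, for the 1075 summits at least 5 kb from a domain end. The higher side had a median of 44.9% acetylated bases and the lower side 14%, and the difference within a summit had a median of 20 percentage points. A sharp step, with 50% or more on one side and 10% or less on the other, was seen at 83 summits (7.72%, interval 6.27 to 9.47). Another 152 (14.1%) had 50% or more on both sides and 91 (8.47%) had 10% or less on both. Summits of the gl000220 contig, which was 77.8% acetylated, are included, and these shares are given only with them. In the domains with 1 or 2 summits a step was seen at 38 of 441 summits (8.62%, interval 6.34 to 11.6), and 50% or more on both sides at 6.12%. The step summits of the members had a median fold of 12.9 and 15 of 83 lay inside an H3K27ac peak.

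The domains with the most CTCF summits are described in turn, apart from the contig above and a domain with regular spacing below. Their gene names come from general knowledge of the human genome and not from an annotation of the hg19 build, which was not used here. All 42 names are on the same chromosome in the RefSeq gene table of GRCh38, and in each of 10 loci with several names the genes there span less than the domain. The domain on chromosome 19 from 1063426 to 1277765 contains SBNO2, STK11, which encodes the tumour suppressor kinase LKB1, and CIRBP, which encodes a cold-inducible RNA-binding protein. It had 96 peaks over 214.3 kb, was 52.6% acetylated and held 16 summits. Inner segments of 42, 6.29, 40.5 and 40.8 kb followed each other before the strongest summit, at 1194722 with a fold of 33.5 (116 fragments). The segment before it was 68.6% acetylated and the segment after it, of 23.5 kb, 38.5%. Beyond it lay a group of 5 summits from 1218218 to 1223294, and a group of 4 from 1244524 to 1250742 that all lay inside H3K27ac peaks.

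The domain on chromosome 11 from 63992946 to 64127208 held 14 summits in 134.3 kb. It contains VEGFB, which encodes a vascular growth factor, the signalling enzyme gene PLCB3, the cell death gene BAD, the nuclear receptor gene ESRRA and the antioxidant enzyme gene PRDX5. Its longest inner segment, 48.7 kb with 14 H3K27ac peaks, was 26.2% acetylated and ended at the strongest summit, at 64068644 (fold 31.3, 110 fragments). The 10 summits after it lay between 64071957 and 64124145, 8 of them inside H3K27ac peaks. The domain on chromosome 22 from 21837303 to 22021373, with the ubiquitin-conjugating enzyme gene UBE2L3, YDJC and SDF2L1, held 12 summits in 184.1 kb. It was 23.2% acetylated. Its strongest summit, at 21889096 (fold 24.6, 85 fragments), stood at the start of a segment of 5.72 kb with 0 acetylated bases, and its last 6 summits lay from 21978553 to 22001171.

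On chromosome 19 from 1810522 to 1888312, with REXO1 and the transcription factor gene KLF16, 11 summits divided 77.8 kb. Highly and weakly acetylated segments lay next to each other there. A segment of 5.00 kb was 93.9% acetylated, and the next ones, of 2.19 and 2.46 kb, were 12.6% and 14.7%. The one after, of 9.85 kb, was 89.8% acetylated. The summit between the last of these pairs, at 1853492, had a fold of 28.7 (99 fragments). The domain on chromosome 16 from 67184445 to 67283224 contains TRADD, which carries signals from the tumour necrosis factor receptor, HSF4, E2F4, which encodes a cell cycle repressor, and FHOD1. It held 10 summits over 98.8 kb, of which 4 lay in the outer zones. Its strongest summit, at 67189439 (fold 21.2, 115 fragments), was the first from the left.

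The neighbouring domains on chromosome 17 differed in where their acetylation lay. The first, from 43123659 to 43255899, contains NMT1, PLCD3 and HEXIM1, whose product inhibits the elongation factor P-TEFb. It held a summit with a fold of 40.6 (167 fragments) at 43212815, and the 2.09 kb before it had 0 acetylated bases. The second, from 43298300 to 43399089, contains FMNL1 and MAP3K14, which encodes a kinase of the noncanonical NF-kappaB pathway. Its first 11 kb were nearly all acetylated, up to the second summit at 43309288: 100% of the first 3.28 kb and 95.0% of the next 7.70 kb. From there to the ninth summit at 43361710 no inner segment was acetylated over more than 28.7%. The last 37.4 kb, after the ninth summit, held 18 H3K27ac peaks and 50.5% of the domain's acetylated bases. On chromosome 1, from 154898441 to 154999816, lie PBXIP1, the adaptor gene SHC1, the cell cycle gene CKS1B and ZBTB7B, which encodes a zinc finger transcription factor. A segment of 31.3 kb from the summit at 154934431 (fold 27.8, 124 fragments) held 41.6% of the acetylated bases of that domain.

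**Figure D5:**
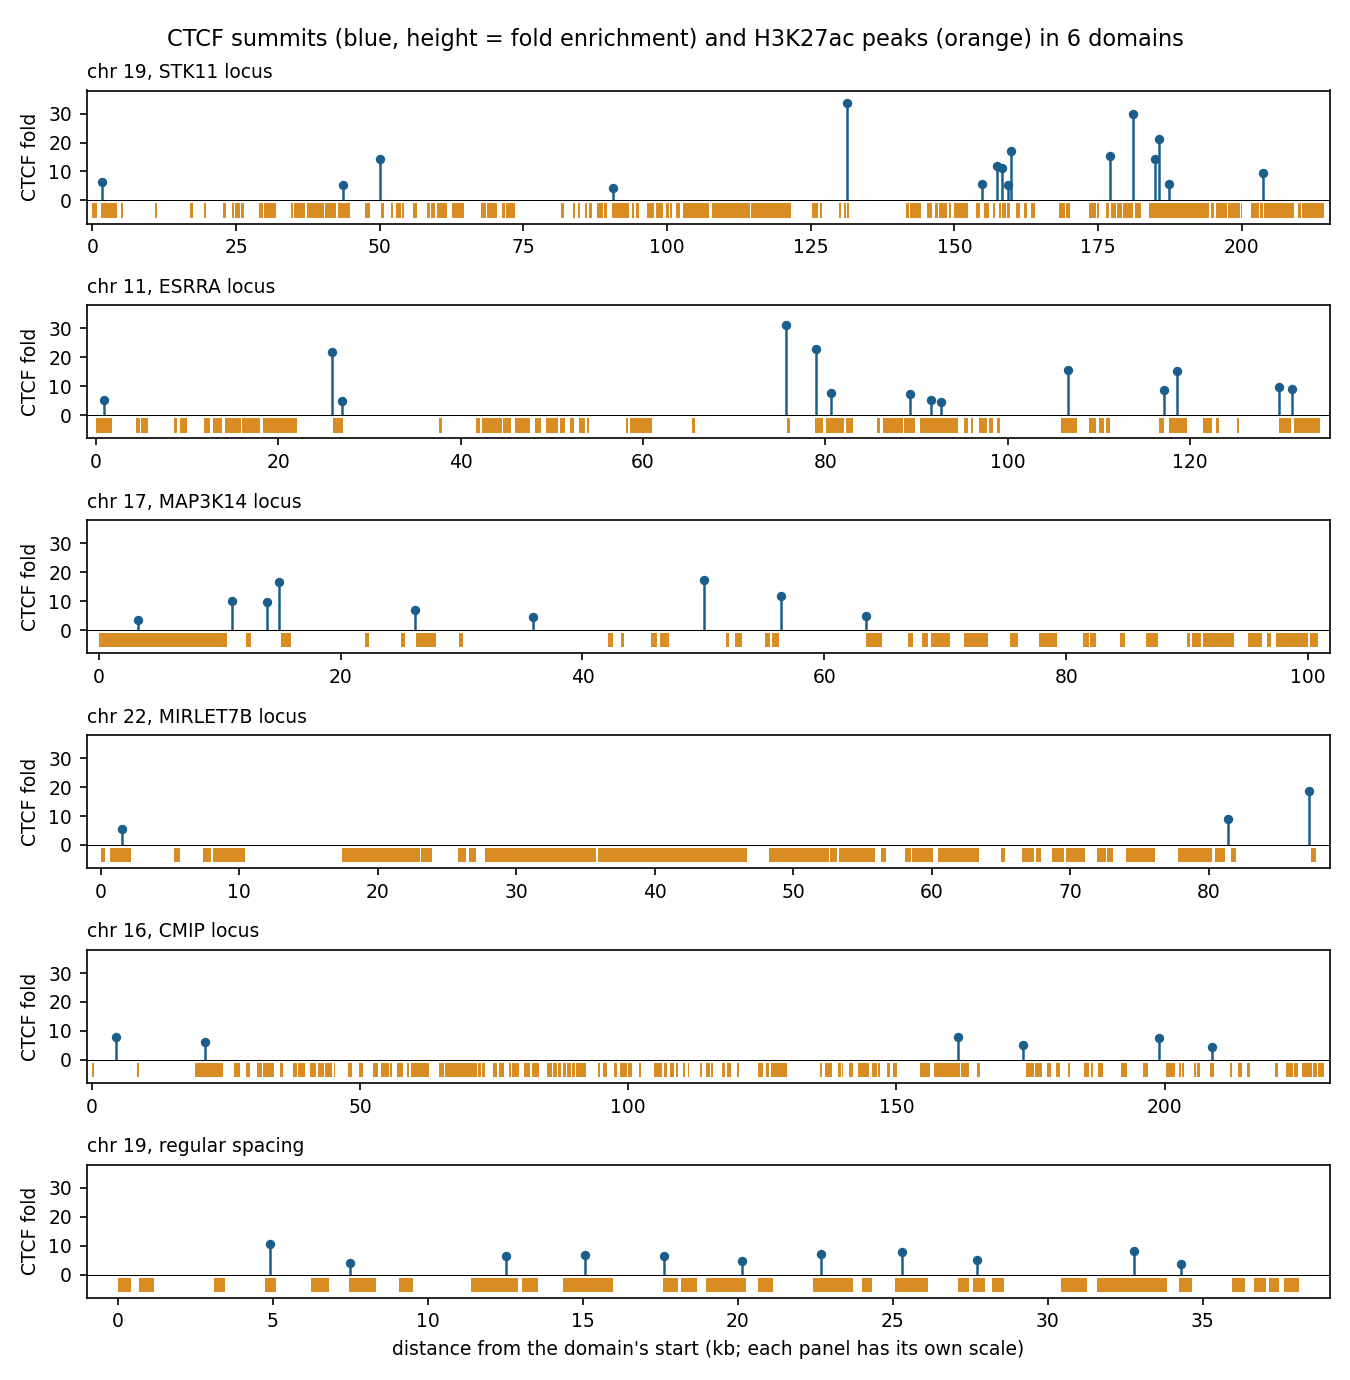
CTCF summits (blue, height is fold enrichment on the y axis) and H3K27ac peaks (orange bars) against the distance from the domain's start in kb, for 6 domains, each with its own x scale. At the MAP3K14 locus acetylation fills the first 11 kb up to the second summit; at the MIRLET7B locus 1 segment of 79.8 kb lies between summits near both ends; at the bottom, 11 summits recur at similar distances.

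The spread of acetylated share among inner segments of 5 kb or more was largest in 3 domains. On chromosome 11 from 67112832 to 67169946, with PPP1CA, which encodes a catalytic subunit of protein phosphatase 1, 9 summits divided 57.1 kb. The segment from 67118826 to 67124500 was 98.1% acetylated and the one before it 7.51%. Between 67150214 and 67157064, 6.85 kb had 0 acetylated bases, and the summits at its ends had folds of 18.2 and 12.3. The domain on chromosome 12 from 52536712 to 52593475 contains KRT80, an epithelial keratin gene. Its segment between the summits at 52537471 and 52546029 was 96.7% acetylated over 8.56 kb and holds the summit of the strongest H3K27ac peak of the list (fold 73.3). Between 52550719 and 52557908 it had 0 acetylated bases over 7.19 kb. The third is the MAP3K14 locus above.

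The 3 domains with the longest inner segments are each named here by 1 gene. How far that gene spans the segment was not examined. On chromosome 16 from 81458254 to 81688056, at the adaptor gene CMIP, a segment of 140.4 kb with 75 H3K27ac peaks held 74.0% of the acetylated bases. Its 6 summits were all of modest enrichment, with folds between 4.58 and 8.00. On chromosome 16 from 89306609 to 89587689, at the chromatin regulator gene ANKRD11, a segment of 120.1 kb was 28.0% acetylated, and the first summit, 0.725 kb from the domain start, had a fold of 28.9 (100 fragments). On chromosome 9 from 37903146 to 38070378, at the adaptor gene SHB, a segment of 103.8 kb was 40.4% acetylated.

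In 3 of the 7 domains with all summits in the outer zones, the longest ones, most of the acetylated bases lay in 1 segment between summits. On chromosome 22 from 46431255 to 46518975, at the locus of the microRNA gene MIRLET7B, 1 segment of 79.8 kb held 26 of the 30 peaks and 96.6% of the acetylated bases. The summits beside it, at 46432819 and 46512606, had folds of 5.47 (18 fragments) and 8.90 (30 fragments), and the strongest, at 46518498, had 18.6 (64 fragments). On chromosome 12 from 52419354 to 52464726, at the nuclear receptor gene NR4A1, the segment of 43.3 kb between the first summit and the next held 83.4%. On chromosome 16 from 88810435 to 88852222, at the mechanosensitive ion channel gene PIEZO1, 36.3 kb held 90.0%. Such a segment spanned 91.0%, 95.4% and 86.8% of the domain in these 3 cases, so a large share follows from its length.

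The longest domains with every summit in the middle were of another shape. On chromosome 22 from 18176452 to 18408071, at the cell death gene BID, 48.9 kb lay before the first of 6 summits and 28.6 kb after the last. On chromosome 11 from 65100777 to 65223228, which contains the long noncoding RNA gene NEAT1, 65.0% of the acetylated bases lay in the 39.2 kb after the last of 5 summits, at 65184004. On chromosome 2 from 47167110 to 47277134, at TTC7A, 46.8 kb with 54.5% of the acetylated bases lay before the first of 4 summits, and the strongest, at 47214348, had a fold of 29.2 (107 fragments). A further CTCF summit lay outside the TTC7A domain, within 5 kb of its start, so this long end segment had CTCF on both sides. The NEAT1 domain also had 1 summit within 5 kb outside its start, but none within 5 kb of its acetylated end. The BID domain had 0 within 5 kb of either end.

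Members also differed in whether their summits lay in or between H3K27ac peaks. The 4 further domains with many summits given here were chosen after their values were seen. On chromosome 19 from 18544057 to 18633892, 8 of 9 summits lay between peaks, and the strongest, at 18561878, had a fold of 25.8 (89 fragments). On chromosome 17 from 40663211 to 40734289, 8 of 9 also lay between peaks, and segments of 4.61 and 1.76 kb had 0 acetylated bases. Both were dense by number of peaks and had 21.2% and 30.1% of their length acetylated. By contrast, on chromosome 6 from 44186967 to 44233984, with SLC29A1, the chaperone gene HSP90AB1 and the NF-kappaB inhibitor gene NFKBIE, 6 of 9 summits lay inside peaks and 46.0% was acetylated. Its 2 strongest summits, at 44205850 (fold 22.3, 129 fragments) and 44225349 (fold 20.2, 132 fragments), both lay inside peaks. The 2 shares did not go together in every member with 9 summits. On chromosome 11 from 67112832 to 67169946, 3 of 9 lay inside peaks and 56.1% was acetylated. On chromosome 19 from 37761554 to 37794454, 5 of 9 lay inside peaks and 25.3% was acetylated. A relation between the 2 shares was not tested. The domain on chromosome 1 from 155145086 to 155259574 had 8 summits, of which 3 lay inside peaks. Their folds ran from 7.04 to 33.7, and 6 of the 8 had a fold above 17.

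A different kind of dense domain showed summits at regular distances. On chromosome 19 from 36759446 to 36797534, 11 summits lay in 38.1 kb, all of them inside H3K27ac peaks. The distances between them, in order, were 2587, 5052, 2533, 2556, 2514, 2557, 2597, 2435, 5057 and 1522 bases, so 7 of 10 lay between 2435 and 2597 bases. Their folds were low to moderate, from 3.81 to 10.5, and the strongest H3K27ac peak had a fold of 6.92, against a median of 26.7 for the strongest peak of a member. The median CTCF background there was 2.19 times the genome-wide level. Another domain with many summits per length, on chromosome 19 from 37761554 to 37794454, had no such regularity. Its 9 summits, with folds of 2.15 to 6.58 and a median background of 2.75 times, were 615 to 7538 bases apart.

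Regular series were also seen on chromosome 1. From 161409805 to 161440857, a stretch known for tandemly repeated transfer RNA genes, segments of 6.66, 6.68, 6.67 and 7.39 kb alternated with segments of 0.796, 0.690 and 0.770 kb. The long ones were 12.7% to 22.1% acetylated and the short ones 69.0% to 77.0%. The local background of its summits was between 2.61 and 9.17 times the genome-wide level. From 228743958 to 228784412, at the 5S ribosomal RNA genes RNA5S1 to RNA5S17, 6 summits had folds of 2.85 to 5.96. Their distances were 6600, 3707, 3580, 7230 and 3508 bases. These were the most even of the 54 members with 5 or more inner segments. The coefficient of variation was 0.372 against a median of 0.885. Members with fewer were left out of this ranking, and the KRT80 domain, with 4 inner segments, had a lower value of 0.242. The part of repeated sequence and its read mapping in these series was not tested.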

How the data were processed

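Chromatin immunoprecipitation libraries of DU145 cells were represented by 2 peak lists. Per the submitters' processing notes, reads were aligned with Bowtie and peaks called with MACS2 on hg19; no version or setting is given in the sources used here. The authors deposited, for each peak, a position, a summit offset, a score (not used here), a fold enrichment (a linear ratio over the local background), and p-values and q-values, both as −log10. Each list was called on 1 library. Positions count from 1 in hg19.

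Peaks were joined and summits assigned in Python 3.11.15 with pandas 2.3.3, tested on simulated data. Fragment numbers and local backgrounds were solved from each deposited fold and −log10 p, with a tolerance of 0.002; the CTCF values required a scale of 0.911. Depth at a summit is given as fragments, with a minimum of 10 in either list. Wilson intervals (SciPy 1.17.1) cover counting error only. Domains were named by a fixed rule: the 10 with the most summits, 3 each with the most summits per kb, the longest inner segment, the largest spread of acetylated share, all summits outer and all in the middle. Those with high background or regular spacing were added after their values were seen. The members, lists and rules were chosen with earlier results of these data known. Motifs and gene counts were not run, since no hg19 genome or annotation was used.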

Additional observations from a re-analysis of the deposited data

How the results depend on the processing

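Of 51 alternative values, 34 stayed within the limits of the value reported: 1.5 times for the number of domains, the 95% interval otherwise. The stricter H3K27ac list moved all 6 results and the joining distance of 5 kb moved 5. With 5 kb there were 89 domains, 61.9% of summits inside a peak, a median inner segment of 3.42 kb that was 60.3% acetylated, and a median CTCF fold of 7.76. The domain on contig gl000220 has no gap above 5 kb and stayed whole. It supplied 39 of these 388 summits, 32 of them inside peaks, and 38 of the 299 inner segments. Its median fold was 2.36, and the 5 kb values are given only with it. With H3K27ac peaks of −log10 q of 10 or more there were 44 domains, 22.1% of summits in the outer zones, 55.0% inside a peak, inner segments of 3.62 kb and 34.9% acetylated, and a fold of 7.80. These values rest on 240 summits and 196 inner segments. Whether the contig is among the 44 domains is not given here. With CTCF peaks of −log10 q of 10 or more, 39.1% of summits lay inside a peak at a fold of 12.8. Requiring 4 or more summits left 184 domains. Counting summits within 1 kb once gave inner segments of 8.66 kb. Counting as edge only what lies outside the middle of the first or last H3K27ac peak gave 3.28% of summits. With any shared base, 62.2% of CTCF peaks overlapped. Stricter lists and shorter joins hold fewer members by construction; the cause of the other shifts was not tested. Leaving out the 3 domains of high background, an alternative added after seeing the data, moved no value beyond its limits. No paired analysis was possible because each mark has 1 library. The median summit rests on 54 fragments.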
